A study of Mus musculus with 4 samples.

Results

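The class III POU genes encode 4 transcription factors of the nervous system, Pou3f1 (Oct-6), Pou3f2 (Brn-2), Pou3f3 (Brn-1) and Pou3f4 (Brn-4). All 4 were found by symbol among the 21690 features of each deposited table, and they were chosen by their FPKM in knockdown and control in these same tables, in which members of 1 family lay on opposite sides of the control. The levels below therefore describe that choice and are given without a test. RNA was sequenced from neural precursors made by differentiating A2lox, a mouse embryonic stem cell line built to carry doxycycline-inducible transgenes. The 3 Geminin knockdown libraries came from independent experiments in which cells with an inducible Geminin knockdown received 500 ng doxycycline from day 3 (the volume is not given in the labels). The 1 control library came from the same knockdown cells without doxycycline. N2B27, a medium without serum that favours neural differentiation, was used for the monolayer cultures of both groups, and RNA was taken on day 5. Before differentiation the A2lox cells were propagated on mouse embryonic fibroblasts. The labels speak of clonal derivatives of A2lox, but whether the knockdown line is 1 clone is not given in the sources used here. A culture that received doxycycline and lacked the knockdown construct was not analysed here, so the effects of doxycycline and of Geminin knockdown cannot be told apart. The control shares a replicate number with 1 knockdown library only. Differences of the other knockdown libraries from it cannot be told apart from differences between experiments. The control has no replicate, so the limma p-values rest on the spread between knockdown libraries and a variance prior. The deposited p-values and marks each compare 1 library with 1 library and hold no spread between knockdown libraries.

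POU factors bind DNA through a POU-specific domain and a POU homeodomain joined by a linker, and class III members often act on enhancers together with Sox proteins. Pou3f1 is expressed in the epiblast and the early neural plate of the mouse and later in myelinating Schwann cells. Pou3f2 and Pou3f3 are expressed in neural precursors and upper-layer cortical neurons of the mouse, where they have overlapping roles in neuron production and migration, and Pou3f2 is also needed for hypothalamic neuroendocrine neurons. Pou3f4 is expressed in the neural tube and the inner ear mesenchyme, and its loss causes deafness in mice.

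The genes are close relatives, so it was first examined whether their reads can be told apart. In the GENCODE M21 annotation of GRCm38 each gene has 1 transcript with 1 exon. Of all 50-base stretches of the 4 transcripts, 0 occurred in the transcript of another class III gene. The length of 50 bases was chosen for this check, and shorter reads could lie within a shared run. The longest identical run in the coding sequences was 38 bases, between Pou3f1 and Pou3f2, and the other 5 pairs shared at most 23 to 29 bases. The 60 coding bases in which the 4 genes are most alike, within the part that encodes the POU-specific domain, are shown because they are the likeliest place for reads to be confused. Capitals mark the 10 positions that are not identical in all 4 genes, and 50 positions are identical.
Pou3f1: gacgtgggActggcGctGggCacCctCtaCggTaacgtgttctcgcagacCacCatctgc
Pou3f2: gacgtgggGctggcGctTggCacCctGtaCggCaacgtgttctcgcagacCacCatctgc
Pou3f3: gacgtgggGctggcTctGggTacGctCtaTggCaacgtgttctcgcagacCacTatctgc
Pou3f4: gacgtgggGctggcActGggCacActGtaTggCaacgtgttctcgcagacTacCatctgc
Of the Pou3f1 transcript, 7.42% of the 50-base stretches also occurred in Gm2164, on either strand, and in the other 3 genes 0.245% to 0.799% occurred in another gene. The gene models behind the deposited values differ in kind. In the files Pou3f2 (chromosome 4, 22413941 to 22415278, mm9) spans 1338 bases and Pou3f4 (chromosome X, 108009804 to 108010889) spans 1086 bases, which equal their coding lengths with the stop codon, so these models hold no UTR. Pou3f1 (chromosome 4, 124334889 to 124337899) spans 3011 bases against a coding length of 1350, and Pou3f3 (chromosome 1, 42753991 to 42757054) spans 3064 bases against 1494.

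Levels are given in FPKM, fragments mapped to a gene scaled by exon length and by all mapped fragments, so genes can be set side by side within the limits of these models. Log2 ratios are knockdown over control within the table that pairs the 2 libraries. Where 1 was added to both levels this is stated, and it understates changes of low genes.

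**Figure D1:**
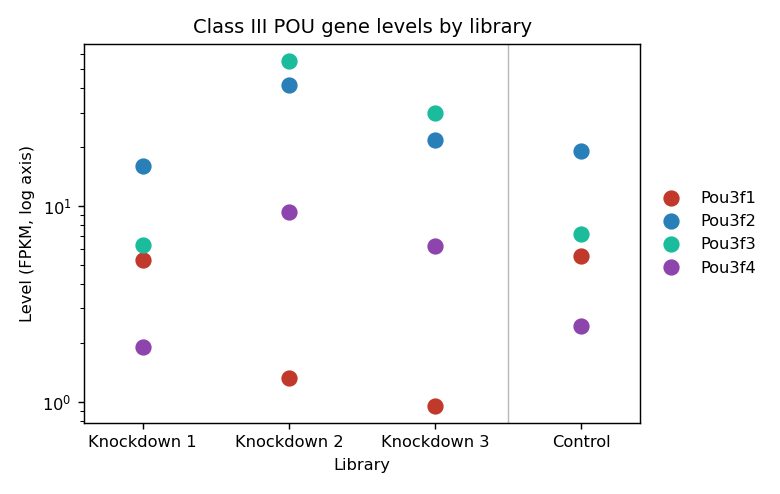
Level of each class III POU gene in FPKM (log axis) in the 3 Geminin knockdown libraries and the 1 control library; each point is 1 library and there are no error bars. Pou3f1 lies at 1.32 and 0.955 in knockdown libraries 2 and 3, below all other points, while Pou3f3 is the highest of the 4 genes there.

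Pou3f1, the member of the epiblast and early neural plate, was lower in knockdown. It had 5.28, 1.32 and 0.955 FPKM in knockdown libraries 1, 2 and 3, against 5.57 FPKM in the control. All 3 knockdown libraries lay below the control, but library 1 was at 94.8% of the control while library 2 was at 23.8% and library 3 at 17.2%. The mean of 2.52 ± 2.40 FPKM (SD, n = 3) therefore joins 1 library near the control with 2 well below it. In bulk RNA such as this, fewer cells of a type and less RNA per cell cannot be told apart. The standard error that the deposited Cuffdiff statistic implies for the plain log2 ratio was 0.21, 0.57 and 0.59 in libraries 1, 2 and 3, around log2 ratios of -0.08, -2.07 and -2.54. With 1 added to the levels the log2 ratio averaged -1.10 ± 0.91 (SD, n = 3). In library 2, 1.12% of 11968 features had a lower log2 ratio than Pou3f1, and in library 3 0.577% did.

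Pou3f3, a factor of cortical precursors and upper-layer neurons, lay above the control in knockdown libraries 2 and 3, where Pou3f1 lay below it. It had 6.30, 54.9 and 29.9 FPKM in knockdown libraries 1, 2 and 3, against 7.18 FPKM in the control. Libraries 2 and 3 were far above the control, at 766% and 417% of it, and library 1 was slightly below it, at 87.8%. The groups overlap in the sense that the control lies inside the range of the knockdown libraries. The implied standard error was 0.19, 0.33 and 0.32 for plain log2 ratios of -0.19, 2.94 and 2.06. With 1 added the log2 ratio averaged 1.51 ± 1.51 (SD, n = 3), so its mean is no larger than its spread. Of 11968 features, 99.7% had a lower log2 ratio in library 2 and 99.3% in library 3.

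Pou3f4, the member of the neural tube and inner ear, had its 4 libraries in the same order as Pou3f3, at a lower level. It had 1.90, 9.33 and 6.25 FPKM in knockdown libraries 1, 2 and 3, against 2.43 FPKM in the control. Library 1 was again below the control, at 78.3%, and libraries 2 and 3 were above it, at 384% and 257%. Its implied standard errors were the widest of the 4 genes in every table, 0.58, 0.66 and 0.68 for plain log2 ratios of -0.35, 1.94 and 1.36.

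Pou3f2, which acts with Pou3f3 in cortical neurons, had the log2 ratio nearest to 0 in the mean over the 3 knockdown libraries. It had 16.0, 41.6 and 21.7 FPKM in knockdown libraries 1, 2 and 3, against 19.2 FPKM in the control. Library 2 alone stood clearly apart, at 216% of the control, while libraries 1 and 3 lay on either side of it, at 83.4% and 113%. The implied standard error of 0.37 in library 3 is larger than the plain log2 ratio of 0.17 there. In library 2 the plain log2 ratio was 1.11 with an implied standard error of 0.36. In library 3 Pou3f3 was at 417% of the control and Pou3f2 at 113%.

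**Figure D2:**
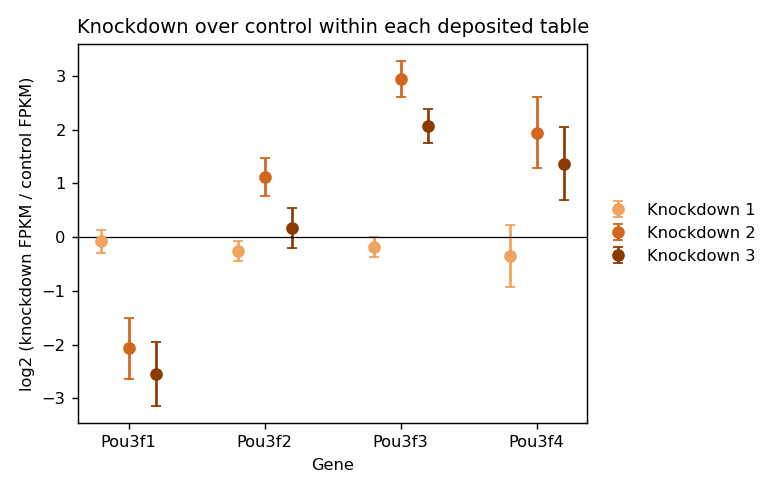
Plain log2 ratio of knockdown over control FPKM for each gene and deposited table, with bars of 1 standard error implied by the Cuffdiff statistic of that pair of libraries. Knockdown library 1 lies between -0.35 and -0.08 for all 4 genes, and libraries 2 and 3 lie below 0 for Pou3f1 and above 0 for the other genes.

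The study's stated rule calls a feature with significance marks in the authors' deposited tables for 2 or more knockdown libraries; here these marks also had to share a direction, with none opposed. Over all features that could be called, 1.98% were called higher and 0.905% lower. Of the 4 genes Pou3f3 was called higher, Pou3f1 was called lower, and Pou3f2 and Pou3f4 were not called. Pou3f2 was marked higher in library 2 only, where 3.23% of tested features were marked higher and 2.02% lower, and Pou3f4 was marked in 0 tables. In library 3, where 3.33% of tested features were marked higher and 1.28% lower, Pou3f3 was marked higher and Pou3f1 lower. In library 1, where 0.909% of features were marked higher and 1.52% lower, 0 of the 4 genes was marked. All these marks come from the contrast that chose the genes and support nothing beyond it. Without library 2, or without library 3, neither Pou3f1 nor Pou3f3 was called, since library 1 marked neither gene.

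The order of the 4 levels differed between libraries. In knockdown library 1 and in the control it was Pou3f2, Pou3f3, Pou3f1 and Pou3f4 from high to low. In knockdown libraries 2 and 3 it was Pou3f3, Pou3f2, Pou3f4 and Pou3f1. Over the 3 knockdown libraries the means of Pou3f3 (30.4 ± 24.3 FPKM, SD, n = 3) and Pou3f2 (26.4 ± 13.4) differed by less than their spread. For Pou3f4 (5.83 ± 3.73 FPKM, SD, n = 3) and Pou3f1 (2.52 ± 2.40) the ranges of mean ± SD overlapped, with Pou3f1 the higher in library 1 and Pou3f4 the higher in libraries 2 and 3. The control gives no spread, so its order carries no error.

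The sum of the 4 levels was 29.5, 107 and 58.8 FPKM in knockdown libraries 1, 2 and 3, against 34.4 FPKM in the control. Pou3f1 made up 17.9%, 1.24% and 1.62% of this sum in knockdown libraries 1, 2 and 3, against 16.2% in the control. Pou3f3 made up 21.4%, 51.3% and 50.9% in the knockdown libraries, against 20.9% in the control. The level of Pou3f3 was 1.19, 41.5 and 31.3 times that of Pou3f1 in knockdown libraries 1, 2 and 3, against 1.29 times in the control. Pou3f2 held a smaller share in libraries 2 and 3, with 54.3%, 38.8% and 36.9% in the knockdown libraries against 55.9% in the control, although its level there was above the control. Pou3f4 held 6.45%, 8.71% and 10.6% in the knockdown libraries, against 7.07% in the control.

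**Figure D3:**
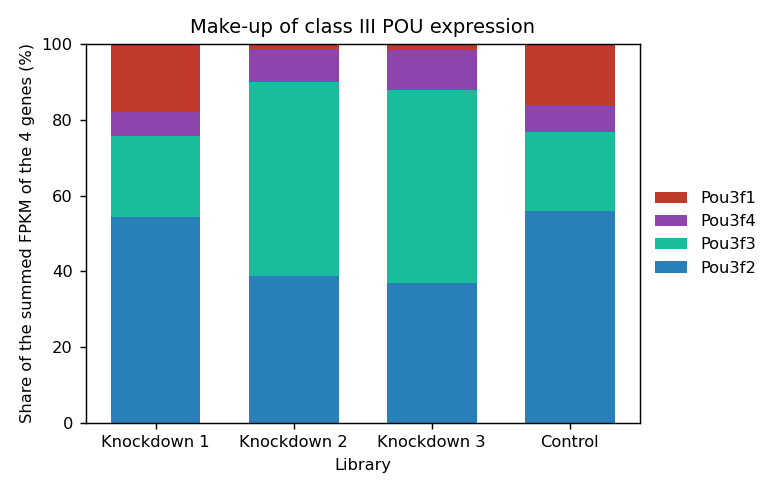
Share of each gene in the summed FPKM of the 4 class III POU genes, in percent, for each library; 1 bar is 1 library. Pou3f3 makes up about as much as the other 3 genes together in knockdown libraries 2 and 3, at 51.3% and 50.9%, and 20.9% in the control.

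Gmnn, which encodes Geminin, was measured in each library as a check of the labels. It had 27.0, 65.9 and 27.9 FPKM in knockdown libraries 1, 2 and 3, against 113 FPKM in the control, which is 24.0%, 58.4% and 24.7% of the control. Gmnn was marked lower in libraries 1 and 3 and not in library 2, so it was called lower by the study's rule. Libraries 1 and 3 had nearly the same Gmnn level. Pou3f3 was at 87.8% of the control in library 1 and at 417% in library 3, and Pou3f1 was at 94.8% and 17.2%. Library 2, with the most Gmnn left, had the highest Pou3f2, Pou3f3 and Pou3f4. With 4 libraries no correlation was computed.

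The features next to the 4 genes were examined next. The non-coding RNA feature 2900092D14Rik (chromosome 1, 42757181 to 42760021, mm9) starts 0.126 kb after the Pou3f3 model ends. It had 2.08, 12.6 and 8.73 FPKM in knockdown libraries 1, 2 and 3, against 1.39 FPKM in the control, and it rose by the study's rule. Libraries 2 and 3 were at 907% and 626% of the control, and library 1 was at 150%. In GRCm38 this feature lies wholly within the single GENCODE transcript of Pou3f3, which runs from 42695768 to 42703176, with 100% of its 2841 bases, although RefSeq lists it as a separate lncRNA. Whether its reads come from the Pou3f3 transcript or from a separate RNA cannot be told apart here. Its level was 33.1%, 23.0% and 29.2% of the Pou3f3 level in knockdown libraries 1, 2 and 3, against 19.4% in the control.

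On the other side 2610017I09Rik, named Pantr1 or linc-Brn1a in RefSeq, ends 2.32 kb before Pou3f3. This lncRNA had 20.1, 63.0 and 30.9 FPKM in knockdown libraries 1, 2 and 3, against 17.9 FPKM in the control. It was marked higher in library 2 only, at 351% of the control, so it was not called. Its log2 ratio with 1 added averaged 0.89 ± 0.81 (SD, n = 3), against 1.63 ± 1.12 for 2900092D14Rik. By limma the adjusted p was 0.999 for both features, so neither passed its threshold of 0.05.

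**Figure D4:**
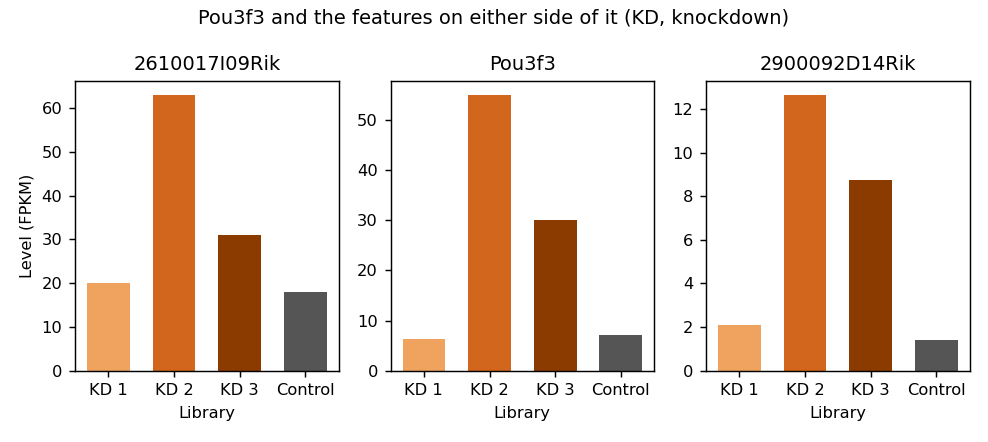
FPKM of the 2 features that flank Pou3f3 and of Pou3f3 itself, in the 3 knockdown (KD) libraries and the control; each panel has its own axis from 0. In all 3 panels library 2 is highest and library 3 second, with knockdown library 1 and the control lower.

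Around the other genes no neighbour was called. Utp11l, 18.1 kb from Pou3f1, had 77.9, 79.0 and 84.8 FPKM in knockdown libraries 1, 2 and 3, against 57.2 FPKM in the control, and was marked higher in library 1 only. Fbxl4, 52.7 kb from Pou3f2, had 4.30, 5.72 and 5.82 FPKM in the knockdown libraries, against 2.96 FPKM in the control, and was marked in 0 tables. Both differ from the gene beside them, in that all 3 knockdown libraries were above the control. Rragc on the other side of Pou3f1 had 29.6 to 32.6 FPKM in knockdown against 32.1 FPKM in the control, and F730047E07Rik, the next feature beyond Pou3f2, had 17.4 to 18.8 FPKM against 19.6 FPKM. The features next to Pou3f4 were low, with Gm7134 at 0.242 to 0.312 FPKM in knockdown against 0.174 FPKM in the control and Cylc1 listed at 0 in every library.

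RefSeq promoters on GRCm38.p6 were matched by symbol for Pou3f2, Pou3f3 and Pou3f4 and not for Pou3f1. The matched promoters are shown because these 3 genes each had their highest level in knockdown library 2. The sequences run 5′ to 3′ on the gene's strand and end at the base before the start, except for Pou3f4, where the last 99 of the 250 bases lie inside a GENCODE transcript and are left off. Capitals mark the letters CCAAT, the core of the CCAAT box, or ATTGG, the same core on the other strand.
Pou3f2, chr4:22488367-22488616, minus strand: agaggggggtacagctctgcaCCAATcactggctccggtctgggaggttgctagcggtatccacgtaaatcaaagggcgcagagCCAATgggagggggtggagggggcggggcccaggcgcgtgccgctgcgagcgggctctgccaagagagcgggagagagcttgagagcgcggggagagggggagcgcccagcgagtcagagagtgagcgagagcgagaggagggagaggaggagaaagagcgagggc
Pou3f3, chr1:42695518-42695767, plus strand: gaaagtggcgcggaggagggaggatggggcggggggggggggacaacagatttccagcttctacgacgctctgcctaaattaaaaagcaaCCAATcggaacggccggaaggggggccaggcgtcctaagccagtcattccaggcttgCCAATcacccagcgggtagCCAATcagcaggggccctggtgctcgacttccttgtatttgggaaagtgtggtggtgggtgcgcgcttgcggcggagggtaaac
Pou3f4, chrX:110814129-110814279, plus strand: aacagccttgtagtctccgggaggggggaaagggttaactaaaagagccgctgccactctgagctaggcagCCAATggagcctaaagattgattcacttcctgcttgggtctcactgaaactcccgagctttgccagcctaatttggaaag
In the 250 bases before the RefSeq start, CCAAT occurred 2 times for Pou3f2, 3 times for Pou3f3 and 3 times for Pou3f4 on both strands together. Of the Pou3f4 matches 1 lies in the 151 bases printed, and the others lie in the 99 bases inside the GENCODE transcript. Of the promoters of 27025 genes, 34.5% held it at least 1 time, 10.5% at least 2 times and 2.98% at least 3 times. The octamer ATGCAAAT (ATTTGCAT on the other strand), which POU factors bind, occurred in 0 of the 3 windows and in 1.61% of all promoters. TATAAA occurred in 0 of the 3 and in 13.0% of all promoters. The GC box GGGCGG occurred 1 time each for Pou3f2 and Pou3f3 and 0 times for Pou3f4, and in 32.9% of all promoters. TGGGAA, the core bound by the Notch factor RBPJ, occurred 1 time for Pou3f3 and 0 times for Pou3f2 and Pou3f4, and in 21.5% of all promoters. The E box CANNTG occurred in 0 of the 3 windows and in 66.0% of all promoters. No CCAAT match in these windows overlapped a match of another motif. G and C made up 66.8%, 60.8% and 58.0% of the windows of Pou3f2, Pou3f3 and Pou3f4, against a median of 52.0% over all promoters.

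Of 11 other POU genes 7 could be called. Over all features 1.98% were called higher and 0.905% lower. Among the other POU genes, Pou5f1 (Oct4), the pluripotency factor of class V, was the 1 gene that rose, and 0 fell. It had 22.4, 45.2 and 69.5 FPKM in knockdown libraries 1, 2 and 3, against 16.9 FPKM in the control. All 3 knockdown libraries were above the control, and unlike Pou3f3 library 3 was the highest. Without library 2, or without library 3, Pou5f1 was not called. Pou2f1 (Oct1), a broadly expressed factor, had 19.6, 16.2 and 15.1 FPKM in knockdown, against 17.5 FPKM in the control. Pou4f1 (Brn-3a), a factor of sensory neurons, had 6.93, 11.1 and 9.04 FPKM in knockdown, against 5.88 FPKM in the control, and was not called. Pou6f1 had 1.78, 4.53 and 3.21 FPKM in knockdown, against 2.07 FPKM in the control, so library 1 was below the control and libraries 2 and 3 above it, as for Pou3f2, Pou3f3 and Pou3f4. Pou2f2 had 0.494, 2.63 and 0.766 FPKM in knockdown, against 0.547 FPKM in the control. It was marked higher in library 2, but had no usable test for libraries 1 and 3 and so could not be called. Pou2f3, Pou4f2, Pou4f3 and Pou5f2 stayed below 0.5 FPKM in every library, and Pou1f1 was listed at 0 throughout. Pou5f2 was marked lower for libraries 1 and 3 and higher for library 2, at these low levels, and was not called. Its 0.0666 and 0.0773 FPKM in libraries 1 and 2 were 56.7% and 171% of the control levels paired with them, so those control levels differed. The Pou5f2 feature spans 77847951 to 78305499 on chromosome 13, so its level is uncertain.

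**Figure D5:**
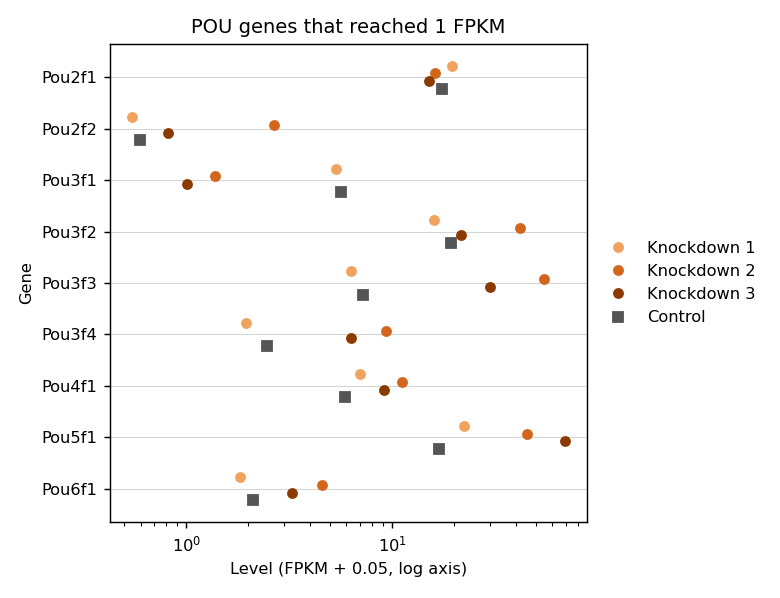
Level of the 9 POU genes that reached 1 FPKM in at least 1 library, plotted in FPKM with 0.05 added on a log axis; circles are the 3 knockdown libraries and squares the control. Knockdown libraries 2 and 3 both lie far left of the control for Pou3f1 and slightly left of it for Pou2f1, and both lie right of it for the other genes plotted.

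The genes whose log2 ratios were most like each member were found by the distance between the 3 log2 ratios with 1 added, over 11968 features. The 3 tables share 1 control, and the part of that control value in the likeness was not tested. For Pou3f1 these were Heph, a ferroxidase, with a distance of 0.14, the orphan nuclear receptor gene Nr6a1 with 0.15 and Fndc3c1 with 0.16. Nr6a1 had 86.5, 29.7 and 26.6 FPKM in knockdown libraries 1, 2 and 3, against 94.1 FPKM in the control. Heph was below 1 FPKM in libraries 2 and 3, and reached the mean FPKM minimum of 1 only through library 1 and the control. Without the added 1 these matches were less close. Libraries 2 and 3 were at 12.1% and 7.25% of the control for Heph and at 31.5% and 28.3% for Nr6a1. For Pou3f1 they were at 23.8% and 17.2%. For Pou3f3 they were Hoxd4, a homeobox gene of the hindbrain and spinal cord, with a distance of 0.25, Tubb3, the neuronal tubulin gene, with 0.39 and Cntn2, an axonal adhesion molecule, with 0.42. Hoxd4 had 0.420, 8.23 and 3.76 FPKM in knockdown, against 0.398 FPKM in the control. Hoxd4 and Cntn2 were below 1 FPKM in library 1 and the control, and reached the mean FPKM minimum only through libraries 2 and 3. Without the added 1 they were less like Pou3f3. Libraries 2 and 3 were at 2068% and 946% of the control for Hoxd4 and at 1216% and 815% for Cntn2. For Pou3f3 they were at 766% and 417%. For Pou3f4 they were Cspg5, a neural proteoglycan, with a distance of 0.13, Nrarp, a Notch target gene, with 0.16 and Cyp46a1, a brain cholesterol hydroxylase, with 0.19. For Pou3f2 they were C230035I16Rik with 0.06, A930038C07Rik, named Ndnf in RefSeq, with 0.12 and Nell2, a neural secreted protein, with 0.13. Without the added 1, library 2 was at 282% of the control for C230035I16Rik and at 216% for Pou3f2. Among the class III genes themselves, Pou3f2 and Pou3f4 had the smallest distance, 1.05. Pou3f4 ranked 4486th of 11967 features by likeness to Pou3f2, and Pou3f2 ranked 452nd by likeness to Pou3f4. From Pou3f3, Pou3f4 ranked 104th with a distance of 1.45, and from Pou3f4, Pou3f3 ranked 1502nd. Pou3f1 and Pou3f3 were farthest apart, with a distance of 5.63.

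Genes that act with class III POU factors or are known targets of them were read from 1 list. Over all features 1.98% were called higher and 0.905% lower. Of 21 measured partners and targets 1 rose, 0 fell and 20 were not called, and 20 could be called. Without library 2, or without library 3, 0 of them were called. Median log2 ratios with 1 added were 0.05, 0.53 and 0.18 in libraries 1, 2 and 3 over the 18 members in the fit, against -0.02, 0.03 and 0.01 over all features in it. The members named next were not called and were chosen after their values were seen, for their known roles. Sox2, the Sox partner in neural precursors, had 140, 203 and 154 FPKM in knockdown, against 135 FPKM in the control; its feature in the files spans 34459303 to 34576915 on chromosome 3, far more than the single-exon gene, so its level is uncertain. Nes, whose neural enhancer binds Sox2 and Pou3f2, had 106, 125 and 113 FPKM in knockdown, against 100.5 FPKM in the control. Zfp521, a neural target of Pou3f1, had 14.3, 12.4 and 11.4 FPKM in knockdown, against 15.8 FPKM in the control. For Cdk5r2, one of the Cdk5 activators that depend on Pou3f2 and Pou3f3 in the mouse cortex, the values were 4.40, 12.9 and 8.13 FPKM in knockdown, against 3.61 FPKM in the control.

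The cell types that use class III factors were read from marker lists. Over all features 1.98% were called higher and 0.905% lower, which is the background for the counts below. The calls in these lists rest on libraries 2 and 3 together: without library 2, or without library 3, 0 genes of the marker lists were called in either direction. In the primed epiblast list, which shares its tissue with Pou3f1, 3 of 14 measured members fell and 0 rose, and 12 could be called. The median log2 ratio of this list with 1 added was 0.05, -0.32 and -0.15 in libraries 1, 2 and 3. Wnt8a, a Wnt ligand, had 10.9, 0.808 and 2.04 FPKM in knockdown libraries 1, 2 and 3, against 9.90 FPKM in the control. The claudin gene Cldn6 had 27.4, 6.23 and 9.46 FPKM in knockdown, against 26.4 FPKM in the control. Dnmt3b, a DNA methyltransferase, had 45.4, 25.8 and 28.8 FPKM in knockdown, against 43.6 FPKM in the control. In these 3 genes, as in Pou3f1, library 1 was near the control and libraries 2 and 3 below it. Other members lay the other way. Utf1, Otx2 and Lef1, named after their values were seen, were above the control in all 3 knockdown libraries and were not called. Fgf5, also named after its values were seen, had 0.532, 0.289 and 0.484 FPKM in knockdown, against 0.200 FPKM in the control. At these low levels it had no usable test and could not be called. Utf1, a chromatin factor of pluripotent cells, had 10.5, 13.3 and 20.9 FPKM in knockdown, against 8.33 FPKM in the control. In the list of early neurons 9 of 18 measured members rose and 0 fell, and 17 could be called. Tubb3 had 24.0, 138 and 75.8 FPKM in knockdown, against 22.2 FPKM in the control, and Nhlh2, a neuronal transcription factor, had 0.194, 26.7 and 10.2 FPKM, against 0.146 FPKM. Nefm and Nhlh1 rose as well. Stmn2, a microtubule regulator of growing axons named after its values were seen, had 75.4, 44.6 and 40.5 FPKM in knockdown, against 66.9 FPKM in the control, and was marked lower in library 3 only.

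Of 14 neural precursor genes 1 rose and 0 fell. This was Vim, an intermediate filament gene, with 376, 1005 and 958 FPKM in knockdown libraries 1, 2 and 3, against 388 FPKM in the control. In the list of hypothalamic neuroendocrine genes, a cell type that needs Pou3f2, 1 of 8 members rose, 0 fell and 3 could be called. Sst, which encodes the peptide somatostatin and is expressed in many other neurons, had 1.93, 81.9 and 39.4 FPKM in knockdown, against 1.94 FPKM in the control. Avp, Oxt and Crh were listed at 0 in every library, and Sim1 stayed at or below 0.019 FPKM. Trh and Arnt2, named after their values were seen, were expressed and not called. Trh had 2.98, 4.29 and 3.48 FPKM in knockdown, against 0.911 FPKM in the control. Arnt2 had 14.9, 19.5 and 13.0 FPKM, against 19.1 FPKM, and was marked lower in library 1 only. Of 6 upper-layer cortical genes 0 were called. Cux1 had 25.6, 45.4 and 31.3 FPKM in knockdown, against 26.4 FPKM in the control. Of 11 oligodendrocyte and Schwann cell genes 0 were called and 6 could be called. Olig1 was listed at 0 in every library, Sox10 stayed below 0.2 FPKM, and Mbp had a failed estimate in all 3 tables and so no level. Of its most abundant members Pmp22 had 16.3, 7.40 and 8.98 FPKM in knockdown, against 15.3 FPKM in the control, and Pdgfra had 9.42, 9.73 and 13.4 FPKM, against 8.91 FPKM.

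Markers of other cells also differed between the libraries. Of 16 naive pluripotency genes 11 rose and 0 fell, against 1.98% higher and 0.905% lower over all features, with Dppa5a, Tdgf1, Zfp42 and Esrrb having the highest mean log2 ratios among them. This count was 0 without library 2 or without library 3. The summed level of this list was 96.0, 364 and 606 FPKM in knockdown libraries 1, 2 and 3, against 75.3 FPKM in the control. The summed level of the early neuron list was 243, 772 and 395 FPKM in knockdown, against 231 FPKM in the control, so, as for Pou3f3, library 2 was highest and library 3 second, but library 1 was above the control. The feeder fibroblast list had 161, 71.9 and 230 FPKM in knockdown, against 133 FPKM in the control, with Postn and Lox called higher and 0 of 11 called lower. Most of this sum was Acta2, an actin of smooth muscle and activated fibroblasts, with 132, 26.3 and 158 FPKM in knockdown, against 107 FPKM in the control. Without Acta2 the other 10 genes summed to 29.0, 45.6 and 71.7 FPKM in knockdown, against 25.8 FPKM in the control, so all 3 knockdown libraries were above the control. The mesoderm and endoderm list had 80.3, 94.7 and 120 FPKM in knockdown, against 81.6 FPKM in the control, with Tcf15 and Cubn called higher, 0 of 16 called lower and Afp and Mesp1 listed at 0 throughout. The part of these cell types in the class III values was not tested.

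Across all features limma called 3 higher and 12 lower of 11968, which is 0.0251% and 0.1%, and all 15 were short RNA features. Of the 88 list genes it tested 0 were called, and 3 had an unadjusted p under 0.05. The smallest adjusted p among list genes by limma was 0.999, and 152 of all features had an unadjusted p under 0.05. That is fewer than a threshold of 0.05 would give among 11968 features if none differed, so the fit was conservative. An adjusted p of 0.999 here does not show that a gene was unchanged. The fit rests on 2 residual degrees of freedom.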

How the data were processed

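RNA-seq of 3 Geminin knockdown libraries and 1 control was used, in 1 sequencing lane per the labels. The members and gene lists were chosen with earlier results of these data known. The submitters' processing notes name TopHat, Cufflinks, Cuffdiff and mm9; the tool versions were not given in the sources used here, nor was the annotation. Each of 3 tables, per the file headers, compares 1 knockdown library with the control. The authors deposited FPKM for both libraries, a Cuffdiff p-value, a q-value treated as a score because it exceeds 1 in places, and a log ratio (base e, control divided by knockdown) with its test statistic, also treated as scores. The deposited p-value, the q-value and the marks come from 1 library against 1 library and so compare libraries, not conditions. The 2 files that repeat marked features were not used. Starts were counted from 1.

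Counts are not given, so absolute depth is unknown. The value of 1 read, taken as the commonest ratio of low features, puts libraries 1, 2 and 3 at 1.00, 1.15 and 0.972 of the control's depth. Of control levels, 87.4% to 88.1% were equal within 0.1% from one table to another, and those of the 4 class III genes were equal. Implied standard errors are the deposited log ratio over the deposited test statistic.

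Of 21690 features, 14477 had usable status in at least 2 tables and could be called by the study's rule. For a test across features, log2(FPKM + 1) went into limma 3.58.1 (R 4.3.3, trended variance prior). This used the 11968 features that were usable in all tables and averaged 1 FPKM or more, with knockdown values set relative to the control of the same table. Benjamini-Hochberg adjustment ran over all these features, with a threshold of 0.05. The fit was also run on simulated data with the same spread for every feature and the same large size of change. Such data do not show how the fit performs where the spread between knockdown libraries is wide, as here. With 3 libraries against 1 the smallest two-sided p of an exact permutation test is 0.5, so none was run. Named genes are the 4 members, Gmnn, all other POU genes, the 3 features most like each member, the nearest features, and of each list up to 4 called members or else the 2 most abundant; some of these genes are not reported here. Tfcp2l1 and Map2 were matched through RefSeq synonyms and Rbfox3 was not matched. Alternatives were another pseudocount, centring, mean control values, stricter marks, no filter and leaving out each knockdown library.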

Additional observations from a re-analysis of the deposited data

How the results depend on the processing

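The mean log2 ratios of the 4 class III genes kept their sign with a pseudocount of 0.1, with ratios centred on the table's median, which lay between -0.0037 and 0.0177, and with the mean control value. Pou3f1 ranged from -1.62 to -0.78 with 1 library left out, Pou3f3 from 0.88 to 2.35 and Pou3f4 from 0.42 to 1.34. Pou3f2 ranged from -0.04 to 0.62 and turned negative without library 2. No paired analysis was possible because the lone control shares a replicate number with 1 knockdown library only. When all 3 tables had to mark a feature, there were 3 called higher and 14 lower, with 0 of the class III genes and 0 list genes in either direction. With a q-value under 0.01, 161 were called higher. Leaving out 1 library gave 12 to 272 features higher and 22 to 120 lower, 0 to 27 list genes higher and 0 to 3 lower (main counts 27 and 3), and 0 to 1 class III genes in each direction. Without library 1 there were 272 higher and 120 lower, and without library 2 or library 3 there were 12 higher and 22 or 23 lower. Of the 286 features called higher 267 had no mark in library 1, and of the 131 called lower 103 had none. By limma 6 features were called lower with a pseudocount of 0.1, and without the filter 0 were higher and 4 lower. With 1 library left out limma called 1 to 4 higher and 5 to 24 lower, and the cause was not tested. Unknown depth and the single control limit all values.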
